A study of Arabidopsis thaliana with 12 samples.

Results

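A set of 44 transposable element (TE) genes on the chromosome arms of Arabidopsis had reads in every met1-3 library. In Col-0 and ddcc they had almost none or were not listed. TE genes are the loci that the annotation marks as encoded by transposons, and the deposited tables mark them by a suffix of 1 after a point. The 44 were chosen by their values in these libraries. A gene was taken when its locus number lay outside the pericentromeric window of its chromosome and its lowest deposited log2 value over the 3 met1-3 libraries was above 3. In addition, its mean in the 3 Col-0 libraries and its mean in the 3 ddcc libraries were both below 2, or it was not listed in the Col-0 and ddcc tables. The 44 were drawn from 291 arm TE genes and 1764 TE genes in all, among 24775 identifiers. The deposited value is log2 of the read count divided by a library size factor, plus 1. As the levels in the 3 genotypes chose the genes, those levels are given as a description and carry no test.

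RNA was sequenced from 3 groups of plants, each with 3 libraries, all of the Columbia ecotype and grown at 22 °C in 16 h of light. The met1-3 mutant, defective in the CG methyltransferase MET1, was sampled as young shoots at 2 weeks. Col-0, the wild type, and ddcc, the drm1 drm2 cmt2 cmt3 mutant without the non-CG methyltransferases, were sampled as mature leaves at 5 weeks. Because genotype and age went together and the 2 ages were normalized separately, the effect of met1-3 and that of age cannot be told apart, and no test was made between them. In whole shoots and leaves, fewer cells of a type and less RNA per cell cannot be told apart either. A further 3 files labelled as met1-3 mature leaves were left out, since all 22607 genes they share with the Col-0 files have the same reads as Col-0.

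The 9 libraries held 10105057 to 13989374 reads on genes, of which 3938275 to 5310477 fell on nuclear genes. MET1 itself had 292, 260 and 447 reads in met1-3, 40, 62 and 70 in Col-0, and 87, 94 and 56 in ddcc, so its reads do not check the met1-3 label. RBCS1A, a small subunit of Rubisco that marks green tissue, stood at 4794 to 5739 CPM (counts per 1000000 reads on nuclear genes) in met1-3, 679 to 880 in Col-0 and 2964 to 3107 in ddcc. LHCB1.3, a light-harvesting protein, had the same order, with 6797 to 7547 CPM in met1-3, 700.4 to 1167 in Col-0 and 4955 to 5478 in ddcc. GLDP1, a glycine decarboxylase subunit of photorespiration, did not, since met1-3 (1270 to 1759 CPM) overlapped Col-0 (975 to 1508) and ddcc was highest (2158 to 2755). The floral genes were low in every library, with AP3 at most 1.21 CPM, AG at most 3.38 and SEP3 at most 2.79. AG was lowest in met1-3 and AP3 had no read there, whereas SEP3 at 1.45 to 2.79 CPM in met1-3 lay above ddcc. The part of these differences in the results was not tested. No source states that the 3 libraries of a group came from separate plants, so the spread given here may be technical.

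As background, MET1 copies CG methylation onto the new DNA strand after replication, whereas CMT2, CMT3, DRM1 and DRM2 place methyl groups in CHG and CHH contexts. Silent transposons usually carry both kinds of mark. DNA transposons such as MuDR (Mutator-like) and En-Spm (CACTA) elements move by a transposase that cuts at inverted repeats at their ends. Copia, Gypsy and LINE elements copy themselves through RNA. Most Arabidopsis transposons lie around the centromeres, and those on the arms stand among active genes.

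Together the 44 genes collected 5414, 4359 and 6474 reads in the met1-3 libraries. The 23 of them listed at 5 weeks collected 13, 9 and 5 reads in Col-0 and 52, 29 and 23 reads in ddcc. The other 21 have no value there and are not in these sums. No Col-0 or ddcc library came near the lowest met1-3 library, as the choice of genes requires. In met1-3 the 44 genes took 0.0455% ± 0.00376 (SD, n = 3) of counted reads. That was 0.115% ± 0.00615 of the reads on nuclear genes and 3.93% ± 0.36 of the reads on TE genes. Gene by gene, mean deposited log2 values in met1-3 ran from 3.72 to 9.42. The median over the 44 genes was 5.93 ± 0.073 (SD, n = 3 libraries). Reads were unevenly shared, and 66.5% of those on the set fell on its 10 genes with the most reads. The plot of deposited values by library shows this range beside the low values of the other genotypes.

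**Figure D1:**
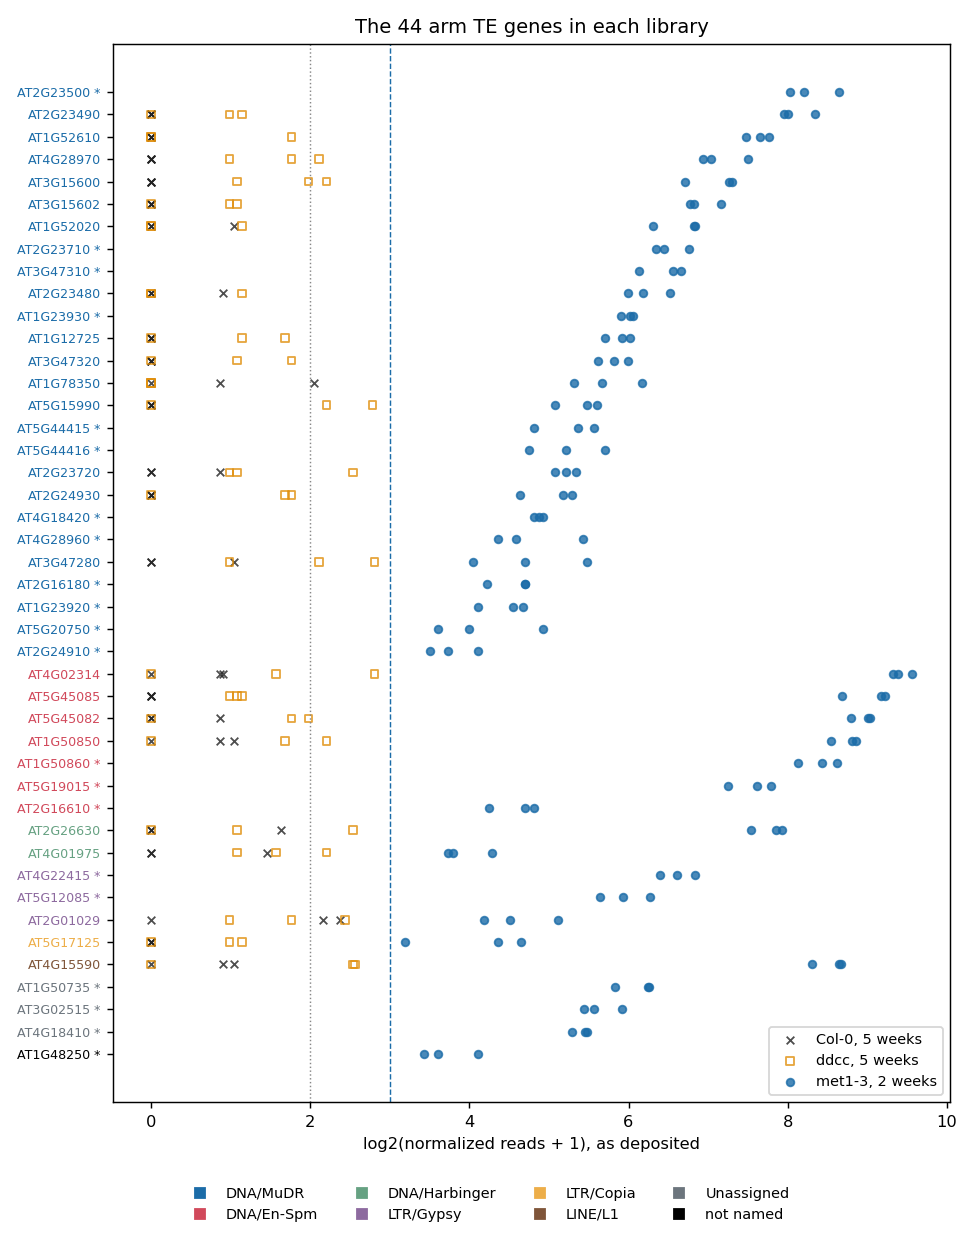
Deposited log2(normalized reads + 1) of each of the 44 genes in the 3 libraries of met1-3 (circles), ddcc (squares) and Col-0 (crosses), with gene names coloured by TE superfamily and an asterisk where the gene was not listed at 5 weeks. The dashed line at 3 and the dotted line at 2 are the limits that chose the genes, and within the met1-3 libraries En-Spm genes reach the highest values, with AT4G02314 at a mean of 9.42.

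At 5 weeks, 21 of the 44 genes were not listed, and the table lists no gene with fewer than 2 reads over its 6 libraries. Of the 23 listed genes, 11 had no read in any Col-0 library and 1, AT1G78350, had no read in any ddcc library. Summed over libraries, 19 of the 23 had more reads in ddcc than in Col-0 and 2 had fewer. These sums were small, at most 8 reads in Col-0 and 9 in ddcc. In 4 of the 23 (AT5G45085, AT3G15600, AT4G28970 and AT2G23720) all ddcc libraries lay above all Col-0 libraries, against 18.6% of all 23151 genes listed at 5 weeks. The rule used these levels, so nothing is read from that count. No gene of the set passed the filter on low counts in the fit of ddcc against Col-0.

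The highest mean in ddcc within the set belonged to AT3G47280, a MuDR gene with 5, 1 and 3 reads in ddcc, 1, 0 and 0 in Col-0 and 23, 32 and 18 in met1-3. Its mean deposited log2 value in ddcc, 1.97, was the closest to the limit of 2. Next came AT3G15600 at 1.75, AT2G01029 at 1.73 and AT4G15590 at 1.70. Just outside that limit were AT1G12720 at 2.16, with 5, 3 and 2 reads in ddcc, and AT1G49080 at 2.27. On the met1-3 side, the genes just inside were AT5G17125, AT1G48250 and AT2G24910, with lowest values of 3.19, 3.43 and 3.50. Just outside were AT4G10830 and AT5G20780, both at 2.98, and AT1G21020 at 2.96. AT2G01029 and AT1G78350 came closest to the Col-0 limit, at 1.51 and 0.97, and no gene was kept out by Col-0 alone. The genes at the edge of the set thus differ from those beyond it by a few reads.

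By the TE annotation, 26 of the 44 genes lay on MuDR elements, 7 on En-Spm, 3 on Gypsy, 2 on Harbinger, 1 on a LINE/L1 and 1 on a Copia element. A further 3 lay on elements of no assigned superfamily, and AT1G48250 had no named element. AT4G01975, counted under Harbinger, overlapped its element over only 1555 of its 3840 bases. MuDR thus made up 59.1% of the set, beside 13.8% of the other 203 arm TE genes listed in met1-3 and 23.2% of the 548 pericentromeric TE genes that meet the same expression limits. Copia made up 2.27% of the set, 23.6% of the other arm TE genes and 1.09% of the pericentromeric genes. Gypsy made up 6.82%, 8.87% and 42.9%. The names come from annotation columns in lists of TEs that the study found expressed, which may miss silent elements. The study describes the lists as TEs upregulated in its mutants, met1 among them. The names may thus favour TEs that are on in met1-3. Of the other arm TE genes, 15.3% have no name. No test was made of these shares.

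Of the 118 arm TE genes above the met1-3 limit, 44 (37.3%) met the limits for Col-0 and ddcc, beside 548 of 705 (77.7%) in the pericentromeric windows. The other 74 arm genes were at or above 2 in ddcc alone (37 genes) or in both ddcc and Col-0 (37 genes). The set's median level in met1-3 was close to that of the pericentromeric genes, 5.93 ± 0.073 against 6.05 ± 0.125 (SD, n = 3 libraries). The difference was -0.12 ± 0.13 on the log2 scale, within the spread between libraries. The same met1-3 limit chose both sets, so the closeness of the medians is a description and no test. Per kb of coding length, as log2 of RPKM (reads per kb per 1000000 nuclear reads) plus 1, the difference was 0.16 ± 0.36.

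En-Spm genes had the highest deposited values of the superfamilies with more than 1 gene. The 7 genes lie on 5 elements and took 46.4% ± 2.34 (SD, n = 3) of the set's reads, with a median deposited log2 value of 8.74 ± 0.17. AT4G02314 (chromosome 4, 1018434 to 1020824, plus strand, TAIR10 coordinates throughout) had 615, 471 and 878 reads in met1-3, 0, 1 and 1 in Col-0, and 5, 2 and 0 in ddcc. AT5G19015, on a short En-Spm element of 2619 bp, had 203, 144 and 176 reads in met1-3 and was not listed at 5 weeks. AT2G16610 was the low one, with 23, 20 and 21 reads. All 3 met1-3 libraries of AT4G02314 lay above every library of AT2G16610, a gene of the same superfamily. CACTA elements are named for letters at their ends. The 40 bases at the annotated ends of the 4 elements with the higher genes are shown for a run that they share. The run marked is not CACTA itself, and not every printed end holds CACTA in full. Each end is read from outside to inside, with the run TACAAGAAA, searched as these letters, in capitals.
AT4TE05190 left end (chr4:1016803-1016842, plus strand): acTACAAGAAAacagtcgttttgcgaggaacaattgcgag
AT4TE05190 right end (chr4:1021329-1021368, minus strand): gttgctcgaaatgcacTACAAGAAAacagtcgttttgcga
AT5TE22990 left end (chr5:6348990-6349029, plus strand): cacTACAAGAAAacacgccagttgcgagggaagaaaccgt
AT5TE22990 right end (chr5:6351569-6351608, minus strand): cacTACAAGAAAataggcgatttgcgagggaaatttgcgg
AT1TE62470 left end (chr1:18846375-18846414, plus strand): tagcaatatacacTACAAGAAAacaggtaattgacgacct
AT1TE62470 right end (chr1:18854843-18854882, minus strand): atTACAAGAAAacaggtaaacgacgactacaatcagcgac
AT5TE65540 left end (chr5:18193410-18193449, plus strand): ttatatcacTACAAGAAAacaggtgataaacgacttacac
AT5TE65540 right end (chr5:18202012-18202051, minus strand): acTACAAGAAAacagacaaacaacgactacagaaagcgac

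The run stood in 8 of the 10 ends of the 5 En-Spm elements, and in 0.13% of 40-base tiles of the genome on either strand. These letters were not set in the plan and were searched for these ends, so the counts are a description and no test. The fifth element, AT2TE29340, which holds AT2G16610, had the run at neither annotated end. AT1TE62470 and AT5TE65540 are long elements of 8508 and 8642 bp, each with a pair of genes on the minus strand. On chromosome 1, AT1G50850 had 425, 330 and 433 reads in met1-3 and AT1G50860 had 318, 290 and 326. On chromosome 5, AT5G45082 had 482, 378 and 516 reads and AT5G45085 had 528, 440 and 479. In Col-0 and ddcc no library had over 3 reads on any of these genes that was listed there. AT5G45085 had no Col-0 read, and its 104 ± 11.8 CPM in met1-3 were at least 164-fold higher than a floor of 3 reads per Col-0 library, with age and genotype both differing.

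Per kb of coding length the gene farther along the minus strand was the higher one in both pairs. AT1G50850 was 2.17 ± 0.19 times AT1G50860, and AT5G45082 was 1.43 ± 0.17 times AT5G45085 (SD, n = 3). The ratio stayed above 1 in each library, from 1.95 to 2.29 on chromosome 1 and from 1.29 to 1.62 on chromosome 5. AT1G50860 and AT5G45085 are relatives, with 90.1% identical bases over their aligned length, and AT1G50850 and AT5G45082 share 81.4% over about the first gene's 51.3% that aligned. The windows from 250 bases before to 50 bases after the annotated starts of the 3 genes below, the most abundant by reads on chromosome 4 and the related pair, hold 18, 14 and 15 CG sites, the sites that MET1 methylates, shown in capitals.
AT4G02314 (chr4:1018184-1018483, plus strand): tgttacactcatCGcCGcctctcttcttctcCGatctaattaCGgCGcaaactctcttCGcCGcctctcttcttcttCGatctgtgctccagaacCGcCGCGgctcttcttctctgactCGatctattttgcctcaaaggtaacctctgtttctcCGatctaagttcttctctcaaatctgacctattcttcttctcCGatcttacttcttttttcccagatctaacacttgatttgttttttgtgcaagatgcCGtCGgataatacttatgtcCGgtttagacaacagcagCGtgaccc
AT5G45085 (chr5:18201474-18201773, minus strand): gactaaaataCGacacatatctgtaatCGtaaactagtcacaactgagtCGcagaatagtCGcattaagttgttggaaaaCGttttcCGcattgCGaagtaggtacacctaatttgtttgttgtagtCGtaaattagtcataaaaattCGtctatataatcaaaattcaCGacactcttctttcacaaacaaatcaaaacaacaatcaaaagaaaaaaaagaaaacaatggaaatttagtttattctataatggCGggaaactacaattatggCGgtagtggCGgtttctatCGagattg
AT1G50860 (chr1:18854307-18854606, minus strand): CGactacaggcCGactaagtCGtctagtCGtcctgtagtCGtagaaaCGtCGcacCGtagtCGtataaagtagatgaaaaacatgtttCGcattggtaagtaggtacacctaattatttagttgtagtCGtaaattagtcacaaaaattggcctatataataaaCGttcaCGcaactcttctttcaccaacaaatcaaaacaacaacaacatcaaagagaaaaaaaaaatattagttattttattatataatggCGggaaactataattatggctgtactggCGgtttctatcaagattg

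AT4G02314 also has a close relative on the arm of chromosome 2, AT2G34130, that is identical at 99.0% of aligned bases. That gene had 942, 680 and 937 reads in met1-3, 1, 2 and 3 in Col-0, and 14, 4 and 4 in ddcc. With a mean of 2.96 in ddcc it stayed outside the set, while AT4G02314 was inside. The limit that separates these close relatives thus rests on a few reads in ddcc.

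VANDAL21 is a MuDR element of Arabidopsis, known as Hiun, whose vanC gene encodes a protein that counters the silencing of its own family. Its copy on chromosome 2 (AT2TE42810, 10001480 to 10009658, 8179 bp) gave the set one of its densest places, with all 3 genes of the element included. AT2G23480 (vanC) had 66, 46 and 106 reads in met1-3. AT2G23490 (vanB) had 227, 188 and 376 reads, and AT2G23500 (vanA, the transposase) had 239, 216 and 464. The third met1-3 library was the highest for all 3 genes, and no Col-0 or ddcc library had over 1 read on the 2 genes listed there. AT2G23490 and AT2G23480 were listed at 5 weeks and AT2G23500 was not.

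Per kb the short vanB gene was the highest of all 44 genes, at 138 ± 34.0 RPKM (SD, n = 3), followed on this element by vanA at 27.1 ± 8.72 and vanC at 7.13 ± 2.04. The vanB level was 5.18 ± 0.41 times that of vanA and 19.6 ± 1.84 times that of vanC. The ratios varied less between libraries than the levels themselves. VANC21 binds DNA at a short motif whose core is AGTATTA. The element holds 17 copies of the core on either strand, beside a median of 1 in 14566 genome tiles of the same length. As many or more are held by 0.041% of tiles. The core was searched because the protein of this element binds it, so the counts are a description and no test. Among the other 31 elements that overlap genes of the set, none has more than 1 copy and 20 have none. These elements differ in length, from 654 to 16936 bp, and 76.3% of the tiles hold at least 1 copy. The stretch with the most copies, 5 in 220 bases, lies near the right end, beyond the start of vanA, with the core and its reverse TAATACT in capitals.
AT2TE42810 (chr2:10008947-10009166, plus strand): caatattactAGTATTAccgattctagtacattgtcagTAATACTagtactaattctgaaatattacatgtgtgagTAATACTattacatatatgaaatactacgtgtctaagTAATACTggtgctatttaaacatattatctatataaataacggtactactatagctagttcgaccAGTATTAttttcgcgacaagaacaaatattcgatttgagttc

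**Figure D2:**
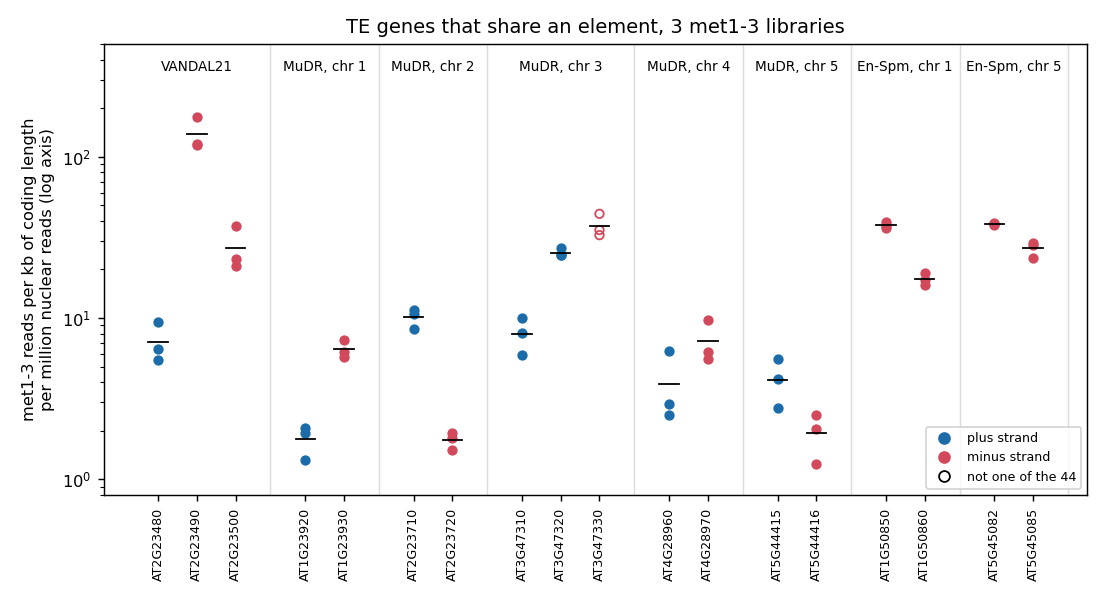
RPKM on nuclear reads (log axis) in each met1-3 library for the genes of 8 elements, with the mean as a bar, blue for the plus strand and red for the minus strand. Genes that share an element differ, from vanB at 138 down to vanC at 7.13 on VANDAL21, and the open circles mark AT3G47330, which was not in the set.

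A family of related MuDR elements contributed 10 further genes, with 1 element on each of the 5 chromosomes. These elements (AT1TE27295, AT2TE43165, AT3TE70635, AT4TE67560 and AT5TE64600) are 7669 to 8312 bp long. They took 532, 415 and 771 reads in met1-3, or 10.4% ± 1.3 (SD, n = 3) of the set's reads. Their ends share the run CTTATGCCA, which stood in 10 of 10 annotated ends and in 0.016% of 40-base genome tiles on either strand. The elements are close copies and the run was searched for these ends, so the counts are a description and no test. The run is in capitals in the ends of the copies on chromosomes 1 and 2, which lie in opposite orientation.
AT1TE27295 left end (chr1:8453486-8453525, plus strand): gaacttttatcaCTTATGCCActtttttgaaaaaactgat
AT1TE27295 right end (chr1:8461758-8461797, minus strand): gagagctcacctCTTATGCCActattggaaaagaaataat
AT2TE43165 left end (chr2:10085509-10085548, plus strand): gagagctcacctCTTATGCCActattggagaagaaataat
AT2TE43165 right end (chr2:10093555-10093594, minus strand): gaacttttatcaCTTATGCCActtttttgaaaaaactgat

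Within 4 bases of the annotated ends of both of these copies, 9 bases are repeated on the left and on the right flank. That is the length of the target repeat that Mutator elements leave when they insert. By the same search the repeat was 8 and 11 bases long at the copies on chromosomes 3 and 4, and none was found on chromosome 5. Each element carries genes on both strands that are read toward each other, and on chromosome 3 one of these genes is annotated as AT3G47310 and AT3G47320. The gene beside the end that holds agctcacct had 54, 47 and 76 reads on chromosome 1 (AT1G23930), 74, 79 and 100 on chromosome 2 (AT2G23710), 18, 17 and 49 on chromosome 4 (AT4G28960) and 37, 20 and 54 on chromosome 5 (AT5G44415). These 4 copies are 98.0% to 99.1% identical to each other. None of the 4 was listed at 5 weeks. Their levels per kb were 6.39 ± 0.84, 10.2 ± 1.39, 3.88 ± 2.04 and 4.16 ± 1.39 in that order (SD, n = 3). The libraries of AT2G23710 lay above those of the other 3 genes, while those of AT4G28960 and AT5G44415 overlapped.

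The copy on chromosome 3 was the exception. AT3G47330 had 315, 276 and 469 reads in met1-3, none in Col-0 and 6, 7 and 3 in ddcc, which gave a ddcc mean of 2.71 and kept it outside the set. Per kb it stood at 37.3 ± 6.12, above every library of the 4 related genes inside the set. The bases from 120 before to 30 after the annotated start are shown for the 5 copies with CG sites in capitals, 8 to 10 in each.
AT1G23930 (chr1:8461431-8461580, minus strand): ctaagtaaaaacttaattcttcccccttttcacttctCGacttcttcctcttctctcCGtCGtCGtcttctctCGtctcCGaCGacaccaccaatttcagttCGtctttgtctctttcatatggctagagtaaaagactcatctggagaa
AT2G23710 (chr2:10085787-10085936, plus strand): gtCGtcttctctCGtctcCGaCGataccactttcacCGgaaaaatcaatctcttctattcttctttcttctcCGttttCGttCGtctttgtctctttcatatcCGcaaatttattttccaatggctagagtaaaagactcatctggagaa
AT3G47330 (chr3:17436883-17437032, minus strand): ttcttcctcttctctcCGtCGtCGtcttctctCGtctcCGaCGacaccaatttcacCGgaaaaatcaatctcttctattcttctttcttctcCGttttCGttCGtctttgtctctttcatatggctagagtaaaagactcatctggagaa
AT4G28960 (chr4:14280408-14280557, plus strand): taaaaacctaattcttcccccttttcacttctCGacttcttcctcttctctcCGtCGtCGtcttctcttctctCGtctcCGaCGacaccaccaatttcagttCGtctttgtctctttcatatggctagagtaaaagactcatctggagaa
AT5G44415 (chr5:17893826-17893975, plus strand): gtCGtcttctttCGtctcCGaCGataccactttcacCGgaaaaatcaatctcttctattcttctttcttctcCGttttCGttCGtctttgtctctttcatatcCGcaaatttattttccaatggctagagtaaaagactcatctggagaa

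The other gene of each element was read from the opposite strand. AT4G28970 on chromosome 4 was the highest of these by reads, with 120, 89 and 209. AT1G23920 had 15, 18 and 26, AT2G23720 had 30, 29 and 42, and AT5G44416 had 47, 19 and 42. On chromosome 3, AT3G47310 had 86, 51 and 117 reads and AT3G47320 had 51, 46 and 56. Within an element the order of the 2 strands was not the same everywhere. AT2G23710 was 5.82 ± 0.41 times AT2G23720 per kb, AT1G23930 was 3.70 ± 0.61 times AT1G23920, and AT5G44415 was 2.19 ± 0.52 times AT5G44416. On chromosome 4 the order was turned, with AT4G28970 at 1.98 ± 0.44 times AT4G28960 (SD, n = 3). In all 4 elements every library gave the same order.

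Reads of such close copies are hard to place. Reads that fit several places equally well were removed by the authors' limit on mapping quality. Of the 44 genes, 35 have another place in the genome that is at least 80% identical over 50% of their length, 30 have one at 90% and 23 at 97%. At any identity the search found no other place of that length for 3 genes, AT2G01029, AT4G01975 and AT5G20750. Counts of near-identical copies are therefore uncertain and may be low where few bases differ, and how far this moved their levels was not tested.

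Among the other MuDR genes, AT1G52610 had 200, 147 and 206 reads in met1-3, none in Col-0 and 2, 0 and 0 in ddcc. AT3G15600 had 95, 112 and 183 reads and its partner AT3G15602 on the same element had 131, 80 and 131. Per kb their ratio ran from 0.95 to 1.83 over the 3 libraries, so their order was not stable. The short AT5G15990, of 348 coding bases, had 40, 35 and 38 reads, none in Col-0 and 3, 6 and 0 in ddcc. AT1G12725 had 47, 47 and 69 reads in met1-3, none in Col-0 and 1, 0 and 2 in ddcc. Its neighbour on the element, AT1G12720, read from the other strand, had 58, 73 and 78 reads in met1-3 and was left out for a ddcc mean of 2.16.

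Some relatives of these genes, or other genes on the same element, had many more reads in ddcc. AT1G78350 had 46, 52 and 45 reads in met1-3, 3, 0 and 1 in Col-0 and none in ddcc. AT1G17275, on the arm of the same chromosome and 95.5% identical, had 67, 55 and 63 reads in met1-3, none in Col-0 and 35, 31 and 34 in ddcc. Both genes had reads in each met1-3 library, whereas AT1G17275 alone had reads in ddcc. A second case is AT3TE70590, a 15186 bp MuDR element on chromosome 3. AT3G47280 had 5, 1 and 3 reads in ddcc, whereas AT3G47260 on the same element had 299, 388 and 317, with 591, 449 and 623 in met1-3. AT3G47280 and the pair AT3G47310 and AT3G47320 form one of the 2 largest clusters of the set, 3 genes within 19560 bp.

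Retroelements were few. AT5G17125, the Copia element Evadé, which is known to move in plants that have lost CG methylation, had 18, 6 and 28 reads in met1-3, none in Col-0 and 1, 1 and 0 in ddcc. It was the gene closest to the met1-3 limit, with a mean deposited log2 value of 4.07 ± 0.77 (SD, n = 3). Its copy Attrapé, AT1G34967 in the pericentromeric window of chromosome 1, is 99.5% identical and had 2, 0 and 4 reads in met1-3. None of the 3 ONSEN genes looked for (AT1G11265, AT3G61330 and AT5G13205) met the limits. The window around the annotated start of Evadé holds 4 CG sites, fewer than the En-Spm windows shown above. Of the En-Spm genes not shown there, AT5G19015 has 6 sites and the low AT2G16610 has 13. A link between sites and level was not tested.
AT5G17125 (chr5:5630288-5630587, plus strand): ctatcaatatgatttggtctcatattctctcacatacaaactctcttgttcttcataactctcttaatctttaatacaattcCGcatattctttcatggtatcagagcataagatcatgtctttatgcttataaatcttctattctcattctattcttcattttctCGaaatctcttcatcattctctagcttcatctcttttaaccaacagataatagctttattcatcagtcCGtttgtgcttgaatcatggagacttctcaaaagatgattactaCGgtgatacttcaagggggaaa

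The LINE gene AT4G15590 was the highest of the retroelements, with 366, 298 and 367 reads in met1-3, 1, 1 and 0 in Col-0 and 4, 5 and 0 in ddcc. The 3 Gypsy genes ranged from AT2G01029, with 31, 16 and 20 reads over 10188 coding bases and 4, 4 and 0 in Col-0, to AT4G22415, with 89, 83 and 97. AT4G22415 lies wholly inside the span of the protein-coding gene AT4G22410 on the same strand, which had 2, 1 and 1 reads in met1-3. How well the counting separated these genes was not tested. AT1G50735 and AT3G02515 belong to the Sadhu family of non-coding retroelements and had 69, 41 and 88 and 39, 34 and 69 reads in met1-3. Both were not listed at 5 weeks. Of the Harbinger genes, AT2G26630 ranked next after AT4G02314 per kb, at 49.2 ± 3.33 RPKM, with 224, 169 and 215 reads. AT4G01975, which only partly overlaps its element, was near the bottom with 17, 9 and 15.

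The 3 met1-3 libraries ranked the 44 genes alike, with a Pearson correlation across genes of 0.950 to 0.964, given as a description because genes are not replicates. The coefficient of variation of normalized reads had a median of 18.7% and ran from 3.83% to 51.9%. Among genes that had 30 or more reads in each met1-3 library, AT1G23930 (5.54%) and AT4G02314 (8.63%) varied least, and AT1G78350 (30.6%) and AT2G23500 (22.8%) varied most. No library was the highest for most genes, since the libraries were highest for 14, 17 and 13 of the 44 on the deposited scale.

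The set was spread over all 5 chromosomes, with 10, 11, 6, 8 and 9 genes on chromosomes 1 to 5, at 31 places when genes within 20 kb of each other are joined. Of these places 11 held 2 or more genes of the set. Distances to the pericentromeric window ran from 87.0 kb for AT2G16180 to 11826 kb for AT1G78350, with 10 genes within 1 Mb and 19 beyond 3 Mb. All 7 En-Spm genes lay within 1795 kb of a window. The 2 genes farthest out, AT3G02515 at 9463 kb and AT1G78350, had mean deposited log2 values of 5.64 and 5.72. Level and distance are shown gene by gene in the plot of level against distance.

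**Figure D3:**
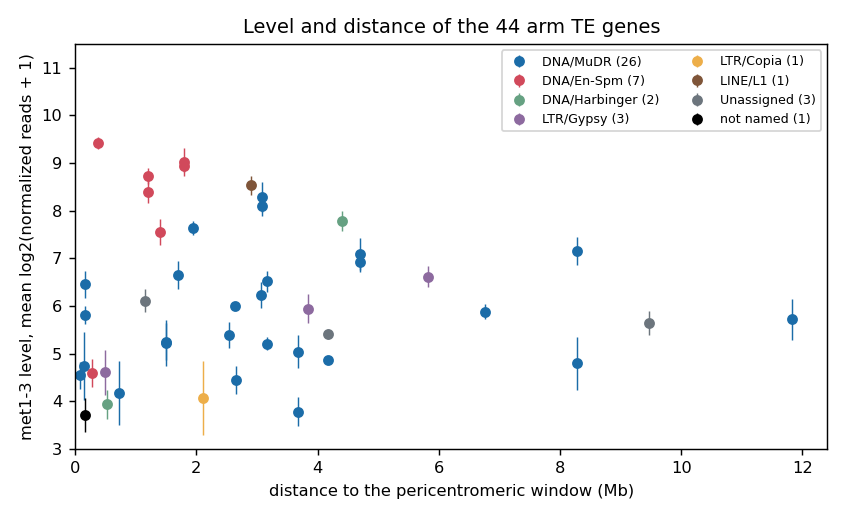
Mean deposited log2 value in met1-3 (SD as bars, n = 3 libraries) of each of the 44 genes against its distance from the edge of the pericentromeric window, in Mb, coloured by TE superfamily. High and low genes stand side by side within 3 Mb, and AT1G78350 is the farthest gene.

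The coding length of the 44 genes, the summed length of annotated exons, had a median of 2338 bases and was a multiple of 3 in 37 of 44. Their 32 named elements ran from 654 to 16936 bp, and 10 of them held 2 or more genes of the set. On 16 elements the TE genes lay on both strands. The window of 300 bases around the annotated start held a median of 12.5 CG sites (quartiles 8 and 15.2) in the set, beside 8 in the other arm TE genes listed in met1-3, 9 in the pericentromeric genes and 6 in 21569 non-TE genes. At least 10 sites were present in 61.4% of the set, 41.9% of the other arm TE genes, 47.8% of the pericentromeric genes and 23.3% of non-TE genes. The ranges overlap widely, close relatives count several times, and no test was made. Over the whole gene the density was alike, with medians of 26.0, 27.3 and 28.6 CG sites per kb in the first 3 of these groups.

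**Figure D4:**
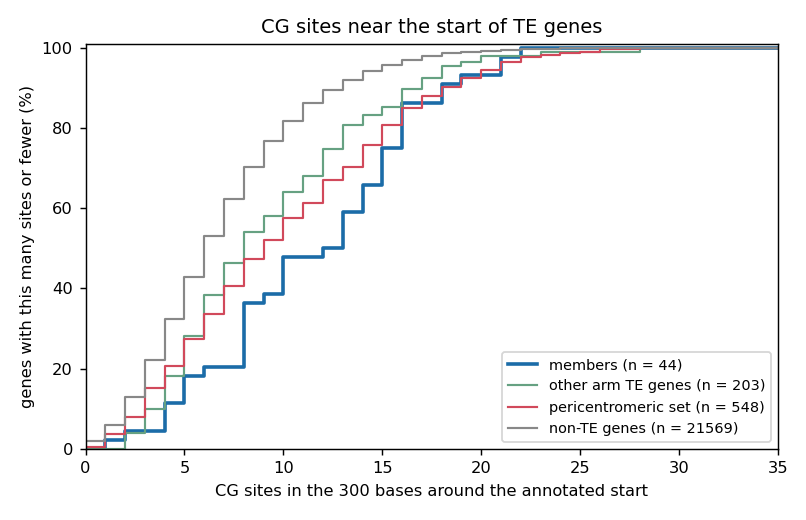
Percent of genes with a given number of CG sites or fewer in the 300 bases around the annotated start, for the 44 genes, other arm TE genes listed in met1-3, pericentromeric genes that meet the same limits and non-TE genes. The line of the 44 genes lies to the right of the others from 3 to 15 sites, with a median of 12.5 sites beside 8, 9 and 6. From 16 sites on it crosses the pericentromeric line, with 86.4% beside 85.0% at 16 sites, and it ends at 22 sites.

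Genes of other kinds next to the set were not used to choose it. Within 2 kb of 28 of the 44 genes, 34 non-TE genes were listed, and 20 of them passed the filter on low counts in the fit of ddcc against Col-0. In that fit (limma with trend, Benjamini-Hochberg over 17005 genes, adjusted p under 0.01 and an absolute log2 change over 1) 861 genes, or 5.06%, were called, 663 higher and 198 lower in ddcc. Scaling by total counts lowered the median change of all genes by 0.32 and turned that split to 440 higher and 787 lower. Of the 20 neighbours, 1 was called. SELT (AT3G47300), a selenoprotein T-like gene that lies 529 bp from AT3G47310, had 42, 40 and 41 reads in ddcc, 20, 16 and 25 in Col-0, and 40, 24 and 30 in met1-3. Its log2 change in ddcc was 1.26 ± 0.24 (SE) with a limma adjusted p of 0.00605, and it was higher in each ddcc library than in any Col-0 library. The call was lost under total count scaling (log2 change 0.94, limma adjusted p of 0.012) and in 5 of 6 fits without a library, where the adjusted p ran from 0.011 to 0.03.

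Between met1-3 and Col-0, neighbours were compared as log2 of CPM plus 1, with age and genotype differing together and no test. All met1-3 libraries lay above all Col-0 libraries in 5 of the 27 neighbours listed at both ages, beside 20.6% of all 20701 non-TE genes. They lay below in 14 of 27, beside 41.3%. The median difference of the neighbours, -0.43, stood beside -0.27 for all these genes. Among the 5 higher genes were AT5G20740, with 30, 21 and 57 reads in met1-3 and 2, 13 and 5 in Col-0, and AT3G47295, with 181, 121 and 186 against 45, 48 and 61. KCS11 (AT2G26640), an enzyme of the family that elongates very-long-chain fatty acids, had 94, 84 and 132 reads against 54, 55 and 59. SELT, described above, was also among them. AT3G47295 and SELT overlap on opposite strands, and as the strand setting of the counting is not given, their reads cannot be told apart there.

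**Figure D5:**
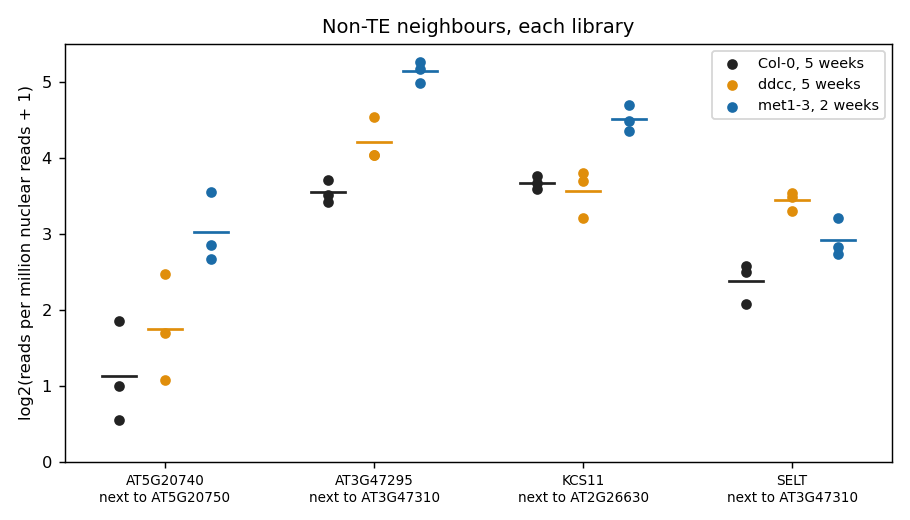
log2(CPM + 1) on nuclear reads of 4 of the 5 non-TE neighbours whose met1-3 libraries all lay above the Col-0 libraries, with each library as a point and the group mean as a bar. SELT is the neighbour called in ddcc against Col-0, and AT3G47295 has the highest reads of these genes in met1-3.

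Of 24 genes of CG methylation and TE silencing, 19 were tested in ddcc against Col-0 and 1 was called, beside 5.06% of all genes tested. The 24 include CMT2, CMT3, DRM1 and DRM2, the genes mutated in ddcc. ROS1 (AT2G36490), a DNA glycosylase that removes methylcytosine, had a log2 change of -3.58 ± 0.43 (SE, limma adjusted p of 0.000417). MORC6, a silencing ATPase, had an adjusted p of 0.00452 in the same limma fit but a log2 change of 0.89 ± 0.16, under the limit of 1. The other 17 tested genes had adjusted p over 0.01, and VIM2, VIM3, SUVH5, DRM1 and ATXR6 were not tested because of low counts.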

How the data were processed

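Total RNA was read as paired ends on an Illumina HiSeq instrument. The authors trimmed reads with Fastp (the submitters' processing notes name Trimmomatic), and aligned them to TAIR10 with HISAT2. Alignments under a mapping quality of 30 were dropped, and HTSeq-count gave the number for each gene. Each deposited file holds log2 values of reads divided by a size factor plus 1. Whether counting used strand is not given in the sources used here. Reads were recovered as whole multiples of the smallest value in each library, and the largest deviation from a whole number was 8.2e-08 (tolerance 0.001), in all 9 libraries.

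The 44 genes, the gene lists and the tests were chosen with earlier results of these data known. Named genes were the 10 highest per kb, those next to the limits, the 4 highest in ddcc, those with the largest and smallest spread, the largest clusters and known elements. ddcc and Col-0 were compared with limma 3.58.1 (lmFit and eBayes with trend) in R 4.3.3 on genes with about 10 reads in at least 3 libraries and 15 in total. Coding lengths, positions and sequences came from RefSeq TAIR10.1, with pericentromeric edges taken as the median place of loci near each limit in locus number. One gene beside the set is not reported here. Relatives were found with blastn 2.17.0. The fit was tested on simulated data. Alternatives were other limits, scalings, pseudocounts, filters, a replicate block and leaving out each library.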

Additional observations from a re-analysis of the deposited data

How the results depend on the processing

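The number of genes that met the limits was 64 and 39 with the lowest met1-3 value over 2 and over 4, 30 and 53 with the other means under 1 and under 3, and 46 with reads scaled to the median library total. It ran from 40 to 53 without single libraries. The median level was 2.51 as log2 of CPM over all counted reads plus 1, 2.51 with TMM and 6.10 over the 40 genes with at least 10 reads in every met1-3 library, and 5.89 to 5.96 without single met1-3 libraries. The share of reads was 0.115% of nuclear reads, and 0.0434% to 0.0467% without single libraries. The difference from the pericentromeric median was 0.16 per kb, opposite in sign to the main value, and -0.19 to -0.053 without single libraries. Calls in ddcc against Col-0 ran from 554 to 958 without single libraries, the lowest without ddcc replicate 2, and calls next to the set from 0 to 1. SELT was kept without Col-0 replicate 1 alone of these fits. Within 5 kb of the set 2 genes were called, SELT and AT1G52000 (log2 change -2.67 with limma, adjusted p of 0.000905). With a replicate block the calls were 1017 in all and 1 next to the set. Same-numbered Col-0 and ddcc libraries had correlated deviations of 0.21, 0.001 and 0.035. Libraries of different numbers ran from -0.19 to 0.17. No clear pairing was seen, but values this weak cannot exclude it. Negative binomial count tests, planned only for deposited counts, were not run. On the recovered reads limma-voom with TMM called 828 genes. Genes with few reads, such as Evadé with 6 in 1 library, are limited most by depth.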
